A study of Mus musculus with 6 samples.

Results

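Open chromatin in mouse ESCs was compared with that in L-EPSCs, expanded potential stem cells kept in the medium of Liu and colleagues, by placing the 28965 ESC peaks of ATAC-seq signal beside the 46601 L-EPSC peaks on chromosomes 1 to 19 and X. These 75566 peaks came from the 125797 in the lists of the whole study, which also held 50225 D-EPSC peaks on the same chromosomes, from cells in the Deng medium. A peak that no peak of the other list overlapped by at least 1 bp was called ESC-only or L-EPSC-only, and every other peak was called shared. By this rule 5015 ESC peaks and 22860 L-EPSC peaks were state-only, and 23950 ESC peaks and 23741 L-EPSC peaks were shared.

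The cells were of the 129SV strain. J1 ESCs were grown with 15% serum, LIF at 1000 units per mL, the GSK3 inhibitor CHIR99021 at 3 µM and the MEK inhibitor PD0325901 at 1 µM. L-EPSCs, converted from ESCs, received LIF and both of these inhibitors at the same concentrations, but with 20% serum replacement in place of serum. They also received the Src family inhibitor A-419259 at 0.3 µM, the tankyrase inhibitor XAV939 at 5 µM, JNK inhibitor VIII at 4 µM and the p38 inhibitor SB203580 at 10 µM. The D-EPSC medium was N2B27 with 5% serum replacement, LIF, CHIR99021 at 3 µM, and dimethindene maleate and minocycline at 2 µM each. EPSCs were passaged without feeder cells before ATAC-seq, whereas ESCs were kept on mouse fibroblast feeders or gelatin. Medium, feeders and state cannot be told apart in these samples.

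Each state had 2 technical replicates but 1 list of peak positions, without heights or scores. No test between replicates was therefore possible, sequencing depth was unknown, and intervals below are 95% Wilson intervals (order-statistic intervals for medians) that cover counting error only. A peak that is absent from a list shows that none was called, not that the chromatin was closed.

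ATAC-seq cuts DNA where it is not wrapped on nucleosomes, so peaks mark promoters, enhancers and insulators that are bound or able to be bound. Promoters of housekeeping genes are mostly rich in CpG and open in every cell type, whereas distal enhancers differ between cell types and carry the motifs of the factors that act there. ESCs model the naive epiblast, while EPSCs are cultured to widen this potential toward extraembryonic lineages. CHIR99021 stabilises beta-catenin, the coactivator of the Tcf and Lef factors at the end of the Wnt pathway, and XAV939 acts against it by stabilising Axin.

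The sequences below come from mm9 and show the regions to which the results return. The first 3 are start peaks of 1 state only, printed on the strand of their gene without annotated UTR and with each CpG in capitals. Tcl1, a coactivator of Akt, had an ESC-only peak at chr12:106460863-106461238, of which the 291 bp at chr12:106460948-106461238 upstream of its start held 7 CpGs. Nanog, a core factor of naive pluripotency, had an L-EPSC-only peak of 238 bp over its start, of which the 213 bp at chr6:122657294-122657506 held 2 CpGs. Esrrb, an orphan nuclear receptor of the same network, had 1 of its L-EPSC-only peaks at chr12:87810862-87811298, of which the 205 bp at chr12:87810862-87811066 held 8 CpGs.
Tcl1: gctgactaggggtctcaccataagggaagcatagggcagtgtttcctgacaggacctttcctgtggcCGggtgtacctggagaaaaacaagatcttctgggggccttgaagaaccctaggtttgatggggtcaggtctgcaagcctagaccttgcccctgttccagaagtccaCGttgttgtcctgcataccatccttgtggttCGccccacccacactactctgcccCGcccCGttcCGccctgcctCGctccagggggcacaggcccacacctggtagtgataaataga
Nanog: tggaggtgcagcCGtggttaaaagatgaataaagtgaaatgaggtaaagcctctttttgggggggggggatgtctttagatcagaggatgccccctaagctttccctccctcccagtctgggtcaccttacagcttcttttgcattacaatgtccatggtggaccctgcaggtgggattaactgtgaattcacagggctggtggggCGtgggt
Esrrb: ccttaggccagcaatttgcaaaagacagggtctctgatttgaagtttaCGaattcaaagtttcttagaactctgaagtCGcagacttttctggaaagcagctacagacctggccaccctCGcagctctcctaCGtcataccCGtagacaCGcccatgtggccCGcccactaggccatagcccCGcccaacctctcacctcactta

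The next 3 lie in distal ESC-only peaks with a pair of matches to the TCF/LEF motif ATCAAAG, the one of 21 motifs searched with the highest ratio of ESC-only to L-EPSC-only shares, and each match is in capitals (CTTTGAT where it lies on the minus strand). The windows are at chr13:94457286-94457465, chr10:86225250-86225429 and chr1:138784065-138784244. Each was intronic, with the nearest coding starts those of Dmgdh (12988 bp), Nt5dc3 (16410 bp) and the pluripotency gene Nr5a2 (66052 bp).
ESC-only, chromosome 13: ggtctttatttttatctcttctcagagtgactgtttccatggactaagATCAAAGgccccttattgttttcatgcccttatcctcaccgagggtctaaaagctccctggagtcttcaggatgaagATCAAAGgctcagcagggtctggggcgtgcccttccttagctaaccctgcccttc
ESC-only, chromosome 10: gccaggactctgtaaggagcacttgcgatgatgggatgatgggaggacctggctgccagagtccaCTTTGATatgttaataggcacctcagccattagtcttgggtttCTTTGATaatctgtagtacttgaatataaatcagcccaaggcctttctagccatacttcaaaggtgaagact
ESC-only, chromosome 1: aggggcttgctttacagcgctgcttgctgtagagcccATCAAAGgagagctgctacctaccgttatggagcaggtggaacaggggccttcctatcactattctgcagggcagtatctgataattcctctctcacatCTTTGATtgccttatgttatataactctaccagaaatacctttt

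State-only peaks were narrow, and most of the difference between both lists lay in narrow peaks. The median width was 240 bp (233 to 245) for ESC-only and 244 bp (241 to 247) for L-EPSC-only peaks, against 403 bp and 525 bp (520 to 530) for the shared peaks of each list. Of ESC peaks under 200 bp, 37.4% (36.1 to 38.7) had no L-EPSC peak, and this share fell with each width class to 1.43% (1.05 to 1.93) at 800 bp and over. Of L-EPSC peaks under 200 bp, 81.7% (80.9 to 82.4) had no ESC peak, against 11.4% (10.6 to 12.2) at 800 bp and over. In every width class the L-EPSC list therefore held the larger state-only share.

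**Figure D1:**
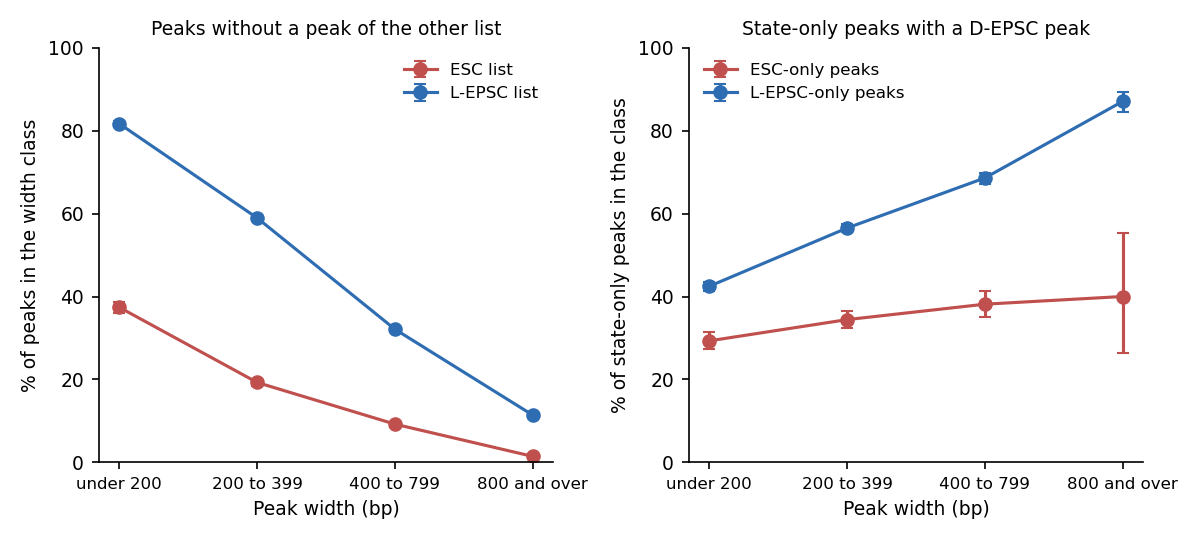
Left, percent of the peaks of each list (y axis) without a peak of the other list, by peak width in bp (x axis); right, percent of the state-only peaks that a D-EPSC peak overlapped. Points are shares and bars 95% Wilson intervals: the state-only share fell from 37.4% to 1.43% in ESCs and from 81.7% to 11.4% in L-EPSCs, while D-EPSC overlap of L-EPSC-only peaks rose from 42.5% to 87.1%.

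A few exact widths recurred at the narrow end. In the ESC list 2015 peaks were exactly 168 bp wide and 817 were 128 bp wide, and 46.1% and 43.3% of these were ESC-only. In the L-EPSC list 1396 peaks of 118 bp and 981 of 121 bp were the most frequent, and 86.9% and 86.2% of these were L-EPSC-only. The part of these widths in the state-only sets was not tested. Where exactly 1 peak of each list met, in 23166 regions, the L-EPSC peak was the wider in 68.3% (67.7 to 68.9), with a median log2 width ratio, L-EPSC over ESC, of 0.27 (0.26 to 0.27).

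Most state-only peaks lay far from any peak of the other list. The median gap from an ESC-only peak to the nearest L-EPSC peak was 12.5 kb (11.7 to 13.1), and from an L-EPSC-only peak to the nearest ESC peak 14.7 kb (14.4 to 15.0). A peak of the other list lay within 1000 bp of 9.51% of ESC-only and 5.21% of L-EPSC-only peaks.

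Both state-only sets were mostly distal, the ESC-only set the more so. The midpoint lay over 1000 bp from every coding transcript start in 92.7% (91.9 to 93.4) of ESC-only and 86.7% (86.2 to 87.1) of L-EPSC-only peaks, against 55.7% (55.1 to 56.3) of shared ESC peaks. Introns held 39.9% (38.6 to 41.3) of ESC-only and 38.0% (37.3 to 38.6) of L-EPSC-only peaks, and intergenic sequence held 49.6% (48.2 to 51.0) and 43.0% (42.4 to 43.6). Exons over 1000 bp from a start held 3.15% (2.70 to 3.67) of ESC-only and 5.71% (5.42 to 6.02) of L-EPSC-only peaks. The order of the distal shares turned, to 74.3% and 81.0%, when peaks counted as shared only if they overlapped by 50% of each.

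**Figure D2:**
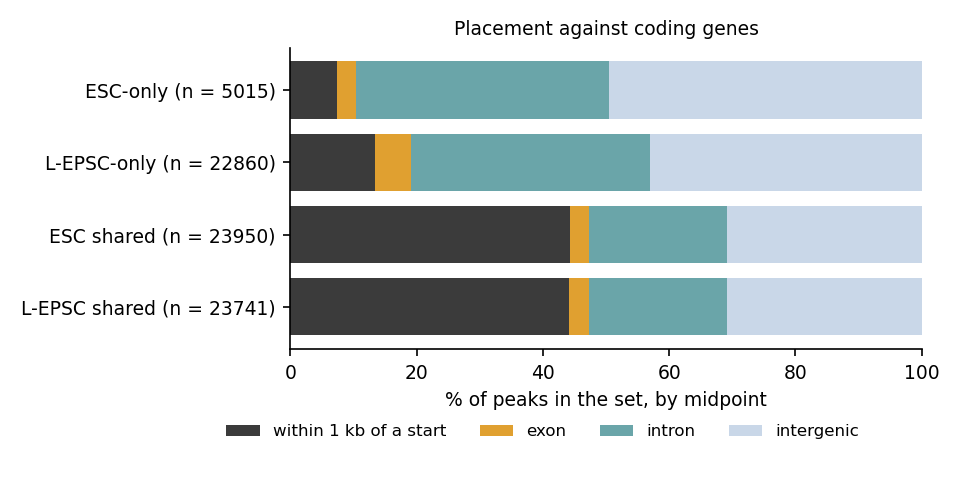
Percent of peaks (x axis) by the place of the midpoint against coding genes for the 4 sets of peaks (rows). Starts account for 7.32% of ESC-only and 13.3% of L-EPSC-only peaks but 44.3% of shared ESC peaks.

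Far from genes the order was the same. Peaks over 100 kb from a coding start made up 19.7% (18.6 to 20.8) of the ESC-only, 12.1% (11.7 to 12.5) of the L-EPSC-only and 8.13% (7.79 to 8.48) of the shared ESC peaks. The distal ESC-only peaks lay at a median of 30.2 kb (28.9 to 31.8) from the nearest coding start, against 22.8 kb (22.2 to 23.5) for L-EPSC-only peaks.

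The promoters in each set differed in CpG content, which separates housekeeping and developmental promoters from tissue-specific ones. The median ratio of observed to expected CpG in peaks near a start was 0.471 (0.431 to 0.503) in the ESC-only, 0.681 (0.670 to 0.696) in the L-EPSC-only and 0.783 (0.779 to 0.787) in the shared ESC peaks. For distal peaks the same ratio was 0.197, 0.243 and 0.252, so that the ESC-only set was the poorest in CpG at both places.

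D-EPSC peaks, which did not enter the definition of the sets, overlapped 54.8% (54.2 to 55.5) of L-EPSC-only and 33.1% (31.8 to 34.4) of ESC-only peaks. Near starts the shares were 83.2% (81.8 to 84.5) and 60.5% (55.4 to 65.4), and at distal sites 50.5% (49.8 to 51.2) and 31.0% (29.6 to 32.3). Of the L-EPSC-only peaks at least 800 bp wide, 633 of 727 (87.1%) also had a D-EPSC peak, whereas 16 of 40 ESC-only peaks of that width did (26.3% to 55.4%). The D-EPSC list is the longest of the lists, and the part of its length in these shares was not tested. With overlap of 50% of each peak required, the shares were 64.2% for ESC-only and 62.1% for L-EPSC-only peaks.

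**Figure D3:**
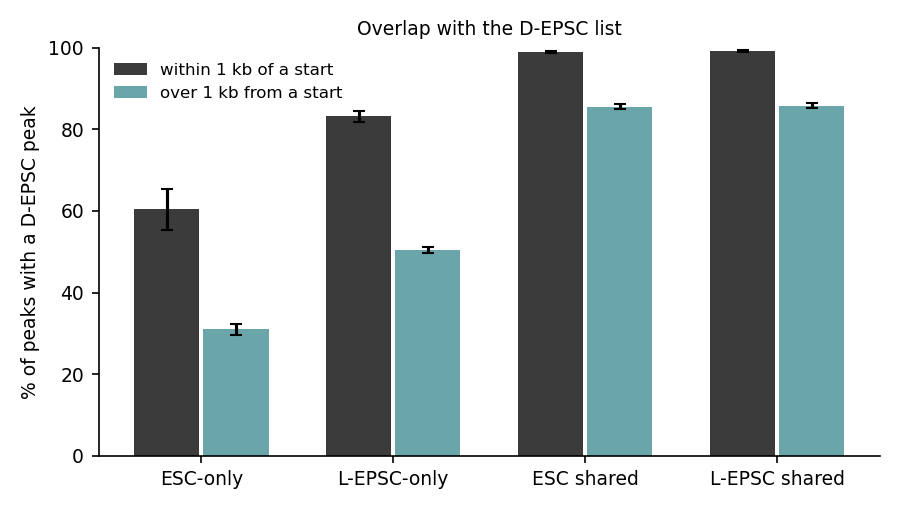
Percent of peaks (y axis) that a D-EPSC peak overlapped by at least 1 bp, for the 4 sets (x axis), with bars for peaks near and far from coding starts and 95% Wilson intervals. L-EPSC-only peaks sit above ESC-only peaks at both places (83.2% against 60.5%, and 50.5% against 31.0%), and both sit below the shared peaks.

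Among 22342 coding genes, 11331 (50.7%) had a peak of both lists within 1000 bp of a coding transcript start, here called a start peak. An L-EPSC peak alone was found at 2255 genes (10.1%) and an ESC peak alone at 184 (0.824%), and 8572 genes had neither. D-EPSCs had a start peak at 90.8% (89.5 to 91.9) of the L-EPSC-only and 64.1% (57.0 to 70.7) of the ESC-only genes. Starts rich in CpG made up 50.7% (48.6 to 52.7) of the L-EPSC-only, 18.5% (13.5 to 24.7) of the ESC-only and 73.3% (72.5 to 74.1) of the genes with both. At 2188 of the 2255 and 174 of the 184 genes, every start peak was itself without an overlapping peak of the other list. A peak of the other list nevertheless lay past the window but within 2500 bp of a start at 275 of the 2255 (12.2%, 10.9 to 13.6) and 30 of the 184 genes (16.3%, 11.7 to 22.3). The L-EPSC list was also shortened to its widest 28965 peaks, so that both lists were of equal length. The counts were then 1623 (7.26%) and 561 (2.51%).

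**Figure D4:**
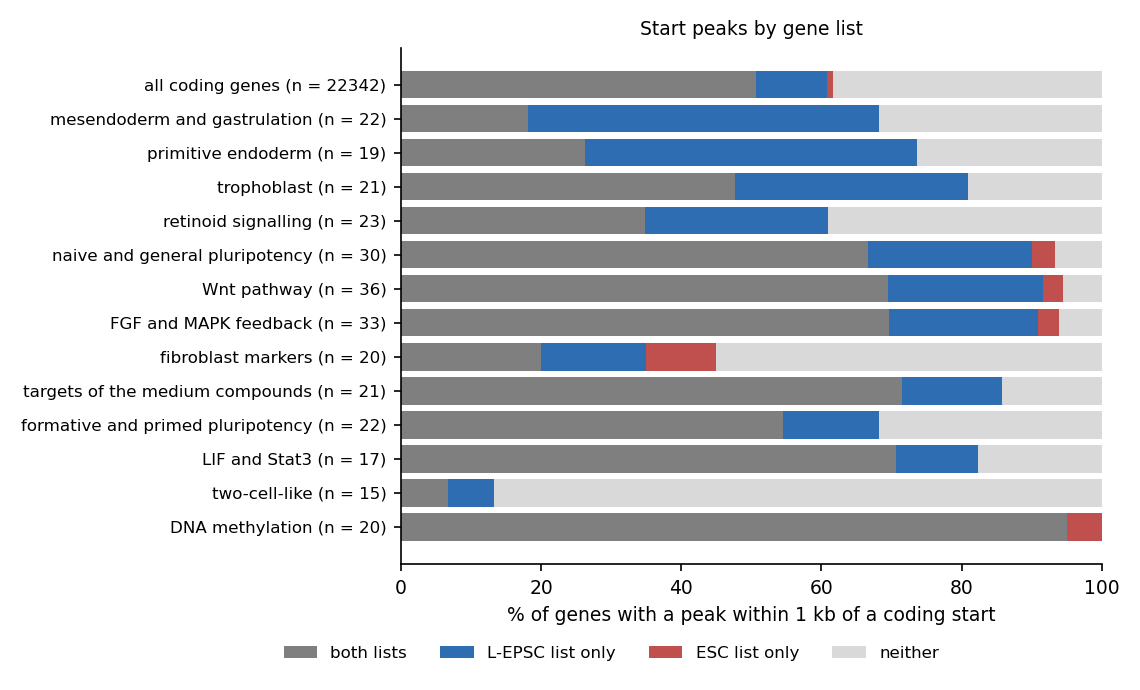
Percent of genes (x axis) with a start peak in both lists, in the L-EPSC list only, in the ESC list only or in neither, for all coding genes and 13 gene lists (rows, ordered by the L-EPSC-only share). The lists of mesendoderm, primitive endoderm and trophoblast genes stand at the top with L-EPSC-only shares of 50.0%, 47.4% and 33.3%, against 10.1% of all coding genes, an order that changed when each list was cut to its widest peaks.

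The gene lists below are short and overlap, with 301 names for 283 genes, so their shares are descriptions. Their order depended on the peaks used. With the widest 50% of each list, the L-EPSC-only shares were 43.3% of pluripotency, 39.4% of FGF and MAPK, 38.9% of Wnt, 36.8% of primitive endoderm, 35.3% of LIF and Stat3, 31.8% of formative, 28.6% of trophoblast and 27.3% of mesendoderm genes, against 15.8% of all coding genes. At equal list length primitive endoderm (42.1%) stood above mesendoderm (36.4%), against 7.26% of all coding genes. Of 30 genes of naive and general pluripotency, 20 had a start peak in both lists, among them the defining genes Pou5f1 and Sox2, and Klf4 and Zfp42. L-EPSC start peaks alone were found at 7 (23.3%, against 10.1% of all coding genes). These were Nanog, Esrrb, Dppa2, Tdgf1, Nr0b1, Gdf3 and Mycn, and all 7 had a D-EPSC start peak. An ESC start peak alone was found at Tcl1, while Dppa3 and Dppa4 had neither.

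These 7 genes differed in how far the ESC list was from a peak. The closest peak of the ESC list was 4258 bp from the Nanog start and 414677 bp from that of Nr0b1, a repressor encoded on chromosome X whose L-EPSC peak was 580 bp wide. At Esrrb, Tdgf1 (a Nodal coreceptor), Gdf3 (a TGF-beta ligand), Dppa2 and Mycn it lay 1020, 1074, 1280, 1243 and 1385 bp away, just outside the window. Esrrb had L-EPSC-only peaks of 575 and 437 bp at separate starts, besides a shared peak. Mycn, a Myc family factor, had the widest of these L-EPSC-only peaks, 908 bp. The Nanog peak was among the narrow ones and was lost when the L-EPSC list was shortened to equal length, whereas the other 6 genes kept their class. Tcl1 had an ESC peak of 376 bp over its start and the nearest L-EPSC peak at 1898 bp.

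Genes of the extraembryonic lineages, toward which EPSCs are cultured, included many transcription factors with an L-EPSC start peak alone. Of 21 trophoblast genes, 7 (33.3%, against 10.1% of all coding genes) had a start peak in L-EPSCs only. None had one in ESCs only, and 10 had one in both. The 7 were Cdx2, Elf5, Gata2, Tfap2a, Ascl2, Dlx3 and Peg10, the first 5 of them transcription factors of trophoblast progenitors, and each had a D-EPSC start peak. Cdx2, which specifies trophectoderm, had an L-EPSC peak of 653 bp and Elf5 one of 284 bp, with the nearest ESC peaks 2131 and 20989 bp from a start. Eomes, Tead4, Gata3 and Tfap2c were open at their starts in both states. At equal list length Tfap2a and Peg10 lost their class. There, 5 of the 21 were L-EPSC-only (23.8%, against 7.26% of all coding genes) and 1 was ESC-only (4.76%, against 2.51%).

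Of 19 primitive endoderm genes, 9 (47.4%, against 10.1% of all coding genes) were L-EPSC-only and 5 were in both. All 9 had a D-EPSC start peak. The transcription factors Gata4, Gata6, Sox7 and Hnf4a had L-EPSC start peaks of 319, 424, 404 and 136 bp. ESC peaks came no closer than 4421 bp to a Gata4 start, 166499 bp to Gata6 and 82813 bp to Sox7, but 1696 bp to Hnf4a. The basement membrane genes Lamb1, Col4a1, Col4a2 and Sparc were in the same class. Col4a1 and Col4a2 share 1 promoter and so 1 peak of 615 bp. Sox17 and Foxa2 had no start peak in either list. At equal list length 8 of the 19 genes remained L-EPSC-only (42.1%, against 7.26% of all coding genes).

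Of 22 mesendoderm genes, 11 were L-EPSC-only (50.0%, against 10.1% of all coding genes) and 4 were in both lists. They comprised the transcription factors Gsc, Lhx1, Mesp2, Nkx1-2, Cdx1, Cdx2, Tbx6, Lef1 and Gata4 and the ligands Bmp4 and Wnt3. D-EPSCs had a start peak at 10 of the 11. At equal length 8 of the 22 were L-EPSC-only (36.4%, against 7.26% of all coding genes). T, Foxa2 and Hand1 had no start peak in either list. Tbx6, Cdx1 and Bmp4 are edge cases, with ESC peaks 1134, 1120 and 1169 bp from a start, just outside the window, and the Tbx6 peak was itself shared.

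Of 22 formative genes, which mark the step from naive to primed cells, Otx2, Pou3f1 and Nodal were L-EPSC-only (13.6%, against 10.1% of all coding genes) and 12 were in both. All 3 L-EPSC-only genes had a D-EPSC start peak. Otx2 lost its class at equal list length, and an ESC peak was 1604 bp from the Nodal start. Two-cell genes gave almost no start peaks. Of the 15 annotated, 13, the Zscan4 genes included, were in neither list (86.7%, against 38.4% of all coding genes). Hmgn3 alone of them was L-EPSC-only. The authors kept reads that passed a mapping quality cutoff, and its part at near-identical gene copies was not tested.

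Of 36 Wnt pathway genes, 25 had start peaks in both lists (69.4%, against 50.7% of all coding genes), among them the core components Axin1, Axin2, Apc, Ctnnb1 and Tcf7l1, and all 10 Frizzled receptor genes did so too. In the L-EPSC list alone were 8 (22.2%, against 10.1% of all coding genes), each with a D-EPSC start peak. Among them were the nuclear factors Tcf7 and Lef1, the target Sp8, the coreceptor Lrp5 and the ligands Wnt3 and Wnt3a. Also in this class were the secreted inhibitors Notum and Sfrp2. The Tcf7 and Lef1 peaks were 449 and 479 bp wide, with the nearest ESC peaks 14329 and 7895 bp from a start. Sp5, a direct target of beta-catenin, was the 1 gene with an ESC start peak alone, of 168 bp at chr2:70313173-70313340. That is the most frequent exact width of the ESC list, and an L-EPSC peak lay 1395 bp from the start. At equal list length Lrp5 lost its class, and 3 of the 36 genes were ESC-only (8.33%, against 2.51% of all coding genes). There, 7 were L-EPSC-only (19.4%, against 7.26%). Among the 19 Wnt ligand genes 6 were L-EPSC-only (31.6%, against 10.1% of all coding genes). Wnt7b and Wnt10b, 2 of the 19, were ESC-only (10.5%, against 0.824%).

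Of 33 genes of FGF and MAPK feedback, 23 were in both lists and 7 L-EPSC-only (21.2%, against 10.1% of all coding genes). Each of the 7 had a D-EPSC start peak. The 7 were the receptor Fgfr3, the feedback inhibitors Spry1 and Spred1, and the immediate early genes Fosb, Junb, Ier2 and Ier3, whose expression follows MAPK activity. Spred1, Junb, Ier2 and Fosb are edge cases, with ESC peaks 1069, 1060, 1173 and 1464 bp from a start, and the Spred1 peak of 2056 bp was itself shared. Fgfr3, with a peak of 659 bp, had no ESC peak within 58571 bp of a start. Fgf10, a ligand, had a pair of ESC-only peaks of 213 bp at its start, with the nearest L-EPSC peak 8617 bp away.

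Retinoid signalling uses the RAR and RXR nuclear receptors. Of its 23 genes, 6 (26.1%, against 10.1% of all coding genes) were L-EPSC-only and 8 (34.8%, against 50.7%) were in both. The 6 were the receptors Rara and Rxrg, the retinol transporter Stra6, the retinoid-induced gene Stra8, the retinal reductase Dhrs3 and the orphan receptor Nr2f1. Each of the 6 had a D-EPSC start peak. Rara had 4 L-EPSC-only peaks, of 310, 855, 285 and 203 bp, around several starts, and a D-EPSC peak at each. The Rxrg peak was 220 bp and the nearest ESC peak lay 99992 bp away, but Rxrg lost its class at equal list length. The Rarb and Rarg starts were open in both states.

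Of 17 LIF and Stat3 genes, Lif itself and Osmr were L-EPSC-only (11.8%, against 10.1% of all coding genes), and Lifr, Stat3 and Socs3 were in both. With the widest 50% of each list the share was 35.3%, as given above, and Lif and Osmr each had a D-EPSC start peak. Of 20 DNA methylation genes 19 were in both, including Dnmt1, Dnmt3a, Dnmt3b, Tet2 and Tet3. Tet1, which encodes an enzyme that oxidises methylcytosine, was the exception, with an ESC peak of 343 bp and an L-EPSC peak outside the window, 1243 bp from the start, and no D-EPSC start peak. Of the 21 genes for targets of the medium compounds, 15 were in both (71.4%, against 50.7%). The kinases Mapk10, Mapk11 and Mapk13 were L-EPSC-only (14.3%, against 10.1%). Their peaks were 133, 121 and 207 bp wide, all lost at equal length.

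Fibroblast markers were included because ESCs can be kept on feeders. Of 20, 4 had start peaks in both lists, 3 in L-EPSCs only (Col1a1, Twist1 and Lox), 2 in ESCs only (Thy1 and Twist2) and 11 in neither. The L-EPSC-only share was 15.0%, against 10.1% of all coding genes, and the ESC-only share 10.0%, against 0.824%. The first fell to 5.00% at equal length, where Twist1 and Lox lost their class, against 7.26% of all coding genes. Col1a2, Col3a1, Postn, Dcn and Pdgfrb were among the 11. The part of feeder cells in the state-only peaks was not tested.

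Gene families differed in their count of L-EPSC-only genes, to be read against the 10.1% of all coding genes. Of 10 LIM homeobox genes 7 were L-EPSC-only (Lhx1, Lhx4, Lhx5, Lhx6, Lhx8, Lmx1a and Lmx1b), of 6 Dlx genes 4, of 14 Nkx genes 6, of 40 Hox genes 10 and of 43 collagen genes 15. Of 9 Pax genes 1 was L-EPSC-only. Of 23 Eph receptor and ephrin genes, which act in cell sorting, 8 were L-EPSC-only. Of 83 genes with symbols of cytoplasmic ribosomal proteins, copies such as Rpl10l and Rpl39l included, 14 were L-EPSC-only and 67 were in both lists. Among the families of this paragraph up to here, the collagens had 2 ESC-only genes, the Nkx genes 1 (Nkx2-9) and the others none. Solute carriers had 41 L-EPSC-only (11.8%) and 10 ESC-only genes (2.88%) of 347, and potassium channel genes with Kcn symbols 16 (16.7%) and 4 (4.17%) of 96. The L-EPSC-only share of solute carriers was near that of all coding genes, of which 0.824% were ESC-only. Families were drawn by symbol, and a few symbols have more than 1 annotated entry. Olfactory receptor genes had 7 L-EPSC-only starts and 1 ESC-only start among 1087.

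The 10 L-EPSC-only genes with the widest start peaks had peaks of 1630 to 2382 bp, Spred1 (2056 bp, above) the second widest. Bend3, a repressor that binds unmethylated CpG-rich DNA, had a peak of 2382 bp, Chd4, the ATPase of the NuRD complex, one of 1802 bp, Whsc1, a histone methyltransferase, one of 1792 bp, and Hcfc1, a cofactor of histone modifiers, one of 1764 bp. D-EPSCs had start peaks of 2474, 1348, 1424 and 1543 bp at these 4 genes. The nearest ESC peak was 10346 bp from Bend3, 13806 bp from Chd4 and 36910 bp from Whsc1, but 1096 bp from Hcfc1. Phldb1, Lrrc4, Enah, Cacna2d3 and Slc38a2 had peaks of 1717, 1684, 1676, 1661 and 1630 bp.

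The widest start peaks of the ESC-only genes were shorter and often at the edge of the window. Wnt7b had the widest, 1063 bp, but this peak began 869 bp from the start and was itself a shared peak, with the nearest L-EPSC peak 1240 bp from the start. Gm10132, Car11 and Lphn3 likewise had L-EPSC peaks between 1011 and 1382 bp from a start. Ptgfr, a prostaglandin receptor gene, was without such a neighbour: its ESC peak was 754 bp wide, a D-EPSC peak of 749 bp was present, and the nearest L-EPSC peak was 187947 bp away. Jph3 and 1190003J15Rik had ESC peaks of 720 and 761 bp, with L-EPSC peaks at 5773 and 6104 bp.

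Distal state-only peaks were spread over many genes. Assigned to the nearest coding start, the 4648 distal ESC-only peaks fell to 3537 genes, of which 20 had at least 5. The 19811 distal L-EPSC-only peaks fell to 9316 genes, of which 791 had at least 5. Gm15319 received the most L-EPSC-only peaks, 27, over a stretch of 1155 kb that also held 27 shared ESC peaks, and none of the ESC-only ones. Pard3, a cell polarity gene, received 23, Med13l, of the Mediator kinase module, 22, and Jarid2, a partner of Polycomb complex PRC2, 20, against 3, 3 and 4 ESC-only peaks. Zfp704 received 17 within 278 kb, the shortest stretch among the 10 leading genes.

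Lrig3 and Csmd1 received the most ESC-only peaks, 7 each, with 4 and 7 L-EPSC-only peaks beside them. Slc10a2, a bile acid transporter gene, received 5 ESC-only and no L-EPSC-only peak over 389 kb. Among the listed genes, Sox2 received 13 L-EPSC-only and no ESC-only distal peaks, Nr5a2 11 and 3, Tbx3 11 and 2, Tcf7l2 10 and 2, and Zfp281 10 and 0. Pluripotency genes as a list received 107 L-EPSC-only and 20 ESC-only distal peaks, Wnt pathway genes 86 and 14, and DNA methylation genes 34 and 15. Over all distal state-only peaks the numbers were 19811 and 4648, and the balance of the pluripotency and Wnt lists was not far from this. The DNA methylation list held relatively more ESC-only peaks, as did the trophoblast (32 and 14) and two-cell (2 and 4) lists. The LIF and Stat3 (45 and 4) and formative (30 and 4) lists held relatively fewer.

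The widest distal L-EPSC-only peak, 1820 bp at chr9:4259160-4260979, was intergenic, 49389 bp from the Aasdhppt start, and had a D-EPSC peak. The third widest, 1776 bp at chr19:23207795-23209570, lay 7033 bp upstream of Klf9, a Krüppel-like factor gene, with the nearest ESC peak 5631 bp away. Among the 5 widest distal ESC-only peaks, those at chr14:122740413-122741548 and chr13:55858247-55859316 were in introns of Clybl and Pcbd2, 1136 and 1070 bp wide, and both had a D-EPSC peak. The 3 wider ones had none.

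Motifs were counted as exact matches on either strand in the 400 bp around each midpoint. The TCF/LEF motif ATCAAAG, bound by the DNA-binding partners of beta-catenin, was in 403 of 4648 distal ESC-only peaks (8.67%, 7.90 to 9.51) and in 1001 of 19811 distal L-EPSC-only peaks (5.05%, 4.76 to 5.37). Shared distal ESC peaks held it in 5.61% (5.24 to 6.02). The ESC-only share was 1.72 times that of L-EPSC-only peaks (1.54 to 1.92). Windows on a regular grid over the genome, weighted to the GC content of the ESC-only peaks, held the motif in 5.59%, below the interval of the ESC-only peaks and near the shares of the other sets. Without weights the grid held it in 8.13%, within the interval of the ESC-only peaks and above the others. The motif can overlap the Sox motif ACAAAGG, as in ATCAAAGG.

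Pairs of TCF/LEF matches, as in the windows printed above, were rarer but differed more. A distal ESC-only peak held 2 or more matches in 0.688% of cases (32 peaks), against 0.136% of L-EPSC-only (27 peaks) and 0.187% of shared ESC peaks. Near starts, 26 of 367 ESC-only peaks (7.08%, 4.88 to 10.2) held the motif, against 88 of 3049 L-EPSC-only peaks (2.89%, 2.35 to 3.54) and 2.02% of shared ESC peaks. Among distal ESC-only peaks the motif was in 7.99% (6.70 to 9.51) of those with a D-EPSC peak and 8.97% (8.03 to 10.0) of those without, so that the intervals overlapped. In distal peaks at least 300 bp wide the shares were 7.73% and 4.80%.

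**Figure D5:**
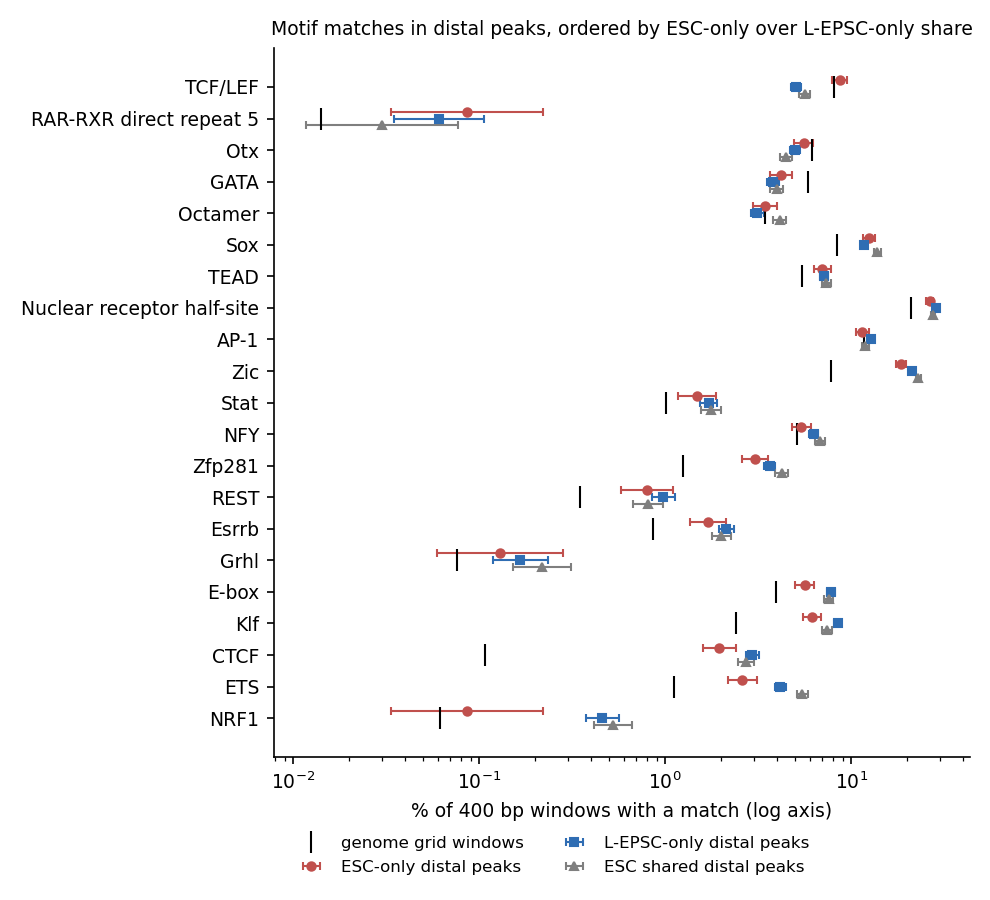
Percent of 400 bp windows with a motif match (x axis, log scale) in distal ESC-only, L-EPSC-only and shared ESC peaks, with 95% Wilson intervals, and in genome grid windows (vertical ticks), for 21 motifs (rows). TCF/LEF stands at the top, with 8.67% of ESC-only and 5.05% of L-EPSC-only peaks, and NRF1 at the bottom, with 0.0861% and 0.459%.

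Several motifs were less frequent in ESC-only than in L-EPSC-only distal peaks. The Klf motif GGGTGTGG, of Krüppel-like factors, was in 6.13% (5.48 to 6.86) of ESC-only and 8.45% (8.07 to 8.85) of L-EPSC-only peaks, against 2.39% of grid windows and 4.14% with the GC weights. The Ets motif CCGGAAG was in 2.60% (2.18 to 3.10) and 4.15% (3.88 to 4.44), against 1.11% of the grid without and 2.48% with weights, the latter within the ESC-only interval. The E-box CACGTG, of Myc and Usf factors, was in 5.64% (5.01 to 6.34) and 7.76% (7.40 to 8.14), against 3.97% and 5.73% of the grid. The NRF1 motif GCGCATGCG, typical of CpG-rich promoters, was in 0.0861% (0.0335 to 0.221) and 0.459% (0.374 to 0.564), against 0.0618% of the grid without and 0.165% with weights, both within the ESC-only interval. The CTCF motif, of the insulator protein, was in 91 of 4648 (1.60% to 2.40%) and 583 of 19811 (2.72% to 3.19%), both above its share in the grid, 0.107% without and 0.210% with weights. In peaks at least 300 bp wide the CTCF shares were 1.68% (1.16 to 2.44) and 1.80% (1.52 to 2.15), with overlapping intervals. The Zic motif CAGCAGG was in 18.6% (17.5 to 19.8) and 21.4% (20.8 to 21.9), against 7.78% and 13.6% of the grid.

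For the motifs of core pluripotency factors the intervals of both state-only sets overlapped, and in 200 bp windows the ratio of ESC-only to L-EPSC-only shares fell below 1 for the octamer (0.956) and the Sox motif (0.973). The octamer ATGCAAAT, bound by Pou5f1, was in 3.44% (2.96 to 4.01) of ESC-only and 3.13% (2.90 to 3.38) of L-EPSC-only peaks, and in 4.12% (3.80 to 4.47) of shared ESC peaks. The grid held it in 3.46% without weights, within the ESC-only interval, and in 2.02% with weights, below all 3 sets. The Sox motif ACAAAGG was in 12.5% (11.5 to 13.4), 11.7% (11.3 to 12.2) and 13.8% (13.3 to 14.4) of the same sets, against 8.35% of grid windows and 8.33% with weights. The AP-1 motif TGANTCA, of Fos and Jun, was in 11.5% (10.6 to 12.4) of ESC-only and 12.9% (12.4 to 13.3) of L-EPSC-only peaks, against 11.8% of the grid and 10.6% with weights. The nuclear receptor half-site AGGTCA was in 26.4% (25.1 to 27.7) and 28.7% (28.1 to 29.3), against 20.9% and 24.0% of the grid. The direct repeat of this half-site with 5 bases between, the classic RAR and RXR element, was in 4 distal ESC-only and 12 distal L-EPSC-only peaks, too few to compare, and in 0.0141% of grid windows (0.0272% with weights).

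L-EPSC-only peaks with and without a D-EPSC peak differed in motif shares. The Klf motif was in 9.42% (8.85 to 10.0) of the 9814 distal L-EPSC-only peaks that no D-EPSC peak overlapped, against 7.50% (750 of 9997) of the others. The CTCF motif went the other way, with 2.44% (2.15 to 2.76) and 3.44% (3.10 to 3.82), as did the Ets motif, 3.68% (3.32 to 4.07) and 4.61% (4.22 to 5.04). The Zfp281 motif, of a zinc finger protein, was in 2.68% (2.38 to 3.02) of those without and 4.58% (4.19 to 5.01) of those with a D-EPSC peak. The TEAD motif ACATTCC was in 8.17% (7.65 to 8.73) and 6.21% (5.76 to 6.70). In peaks at least 300 bp wide the intervals of the Ets motif overlapped (3.19 to 4.64 and 4.17 to 5.47). The grid held the Zfp281 motif in 1.25% and the TEAD motif in 5.42% of windows, and in 2.61% and 5.44% with the GC weights. The weighted Zfp281 share lay within the interval of the peaks without a D-EPSC peak.

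Chromosome X stood apart from the autosomes. L-EPSC-only peaks made up 35.0% (31.6 to 38.6) of the 703 L-EPSC peaks on X, below the range of 46.0% to 52.5% over the 19 autosomes. ESC-only peaks made up 15.5% (12.7 to 18.8) of the 547 ESC peaks on X, within the autosomal range of 13.9% to 19.7%. There were 2.89 L-EPSC-only peaks for each ESC-only peak on X, against 3.78 to 6.05 on autosomes.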

How the data were processed

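ATAC-seq peaks were analysed as deposited, 1 list of positions per state. Per the labels and the study's methods, the authors trimmed reads with Trim Galore (0.6.3) and aligned them to mm9 with Bowtie2 (2.3.5). They kept properly paired reads that passed a mapping quality cutoff with SAMtools (1.10) and called peaks with MACS. The 2 technical replicates of a state are pooled, so peak height, depth and replicate spread are unknown. The 2 mitochondrial peaks of each list were left out.

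Overlaps of 1 bp were computed in Python (3.11.15) and checked against bedtools and simulated peaks. Genes were the 22342 coding genes of GENCODE M1. CpG-rich starts had observed over expected CpG above 0.6 and GC above 50% in 1000 bp. Of 283 listed genes 281 were found. Named were list and family members of a state-only class, the 10 genes with the widest start peaks and the 10 with most distal peaks per class, and the widest distal peaks. Distal counts of listed genes, the printed sequences and minor neighbours were picked after values were seen. Some named items are not reported here. Sequences were read from the mm9 genome, outside annotated UTRs. The members and lists were chosen with earlier results of these data known.

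The alternatives were other overlap rules, widest peaks, equal list lengths, other start windows and other motif windows.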

Additional observations from a re-analysis of the deposited data

How the results depend on the processing

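No paired analysis was possible because each state is 1 pooled list without replicate columns, and no replicate could be left out. With reciprocal overlap of 50%, 58.8% of ESC and 36.6% of L-EPSC peaks were shared, 11925 ESC peaks were state-only, the distal shares were 74.3% (ESC-only) and 81.0% (L-EPSC-only), and the shares with a D-EPSC peak 64.2% and 62.1%, so the order of the states turned in both. Within 500 bp, 83.7% of ESC and 51.8% of L-EPSC peaks were shared and 94.3% of ESC-only peaks were distal. With the widest 50% of each list, 80.4% and 49.9% were shared, 2836 and 11666 were state-only, 84.7% and 69.0% of these were distal, 63.3% and 79.5% had a D-EPSC peak (the D-EPSC list was kept whole), and 366 genes had an ESC and 3532 an L-EPSC start peak alone. At equal length, 67.9% and 67.0% were shared, 9285 and 9564 were state-only, 91.4% and 80.2% of these were distal, 52.9% and 65.9% had a D-EPSC peak, and 561 genes had an ESC start peak alone. Equal lengths bring both state-only counts close by construction, and at this length 1623 genes had an L-EPSC start peak alone; list length and depth cannot be told apart. Beyond 2500 bp, 89.1% of ESC-only and 81.8% of L-EPSC-only peaks were distal. Start windows of 500 and 2500 bp, the 5′ end alone, and counting only genes whose every start peak was state-only (chosen after seeing the data) kept the gene counts within 1.5 times. The TCF/LEF ratio of ESC-only to L-EPSC-only shares was 1.61 to 1.85 in 200 bp windows, with GC weights and in peaks at least 300 bp wide (the last chosen after seeing the data). In 200 bp windows the Zfp281 ratio turned from 0.834 to 1.01, and the octamer and Sox ratios from above 1 to 0.956 and 0.973 (both with overlapping intervals in the main windows); the cause was not tested.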
